A study of Mus musculus with 24 samples.

Results

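The 190 genes described here are those whose hepatic response to 30% dietary restriction (DR) differed between progeroid Ercc1 d/- mice and wild-type Ercc1 +/+ mice at 16 weeks of age. They were chosen from 12690 tested genes, out of 22429 in the deposited count table, by a single contrast, the log2 diet effect in the mutant (DR over ad libitum feeding, AL) minus the log2 diet effect in the wild type, called where the Benjamini-Hochberg adjusted p of edgeR's quasi-likelihood test was under 0.05. This difference of differences is called the interaction below. A positive value means that restriction moved the gene further up, or less far down, in the mutant than in the wild type. The 4 groups of the contrast had 4 libraries each, all from livers of male F1 hybrid C57BL6J/FVBN mice aged 16 weeks. They were Ercc1 d/- under DR, Ercc1 d/- on AL food, Ercc1 +/+ under DR and Ercc1 +/+ on AL food. Freely fed mutants ate 2.3 g of food a day and freely fed wild types 3.0 g, so the restricted rations were 1.6 g for the mutant and 2.1 g for the wild type. Rations were lowered in weekly steps of 10% from 7 weeks of age to the full 30%, the daily food was handed out at the end of the light phase, and none was given on the day the livers were taken. Restricted mice of both genotypes thus share the ration schedule, and all mice were kept on the same synthetic diet, AIN93G. Freely fed Ercc1 d/- mice of 7 weeks and freely fed Ercc1 +/+ mice of 104 weeks, also 4 libraries each, entered the fit and serve below as further levels.

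ERCC1 forms with XPF the endonuclease that cuts damaged strands in nucleotide excision repair and acts in interstrand crosslink and double-strand break repair. Mice with a truncated and a null Ercc1 allele (d/-) age prematurely, and restriction is known to prolong their life. In normal mouse liver, restriction is known to lower insulin and growth hormone signalling, to reduce lipid synthesis, to weaken the male pattern of liver gene expression and to shift metabolism between meals and fasting. Liver genes that respond to the constitutive androstane receptor (CAR) and the pregnane X receptor (PXR), nuclear receptors that control drug-metabolizing enzymes, are among the classical restriction-responsive genes.

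Total counts ran from 13269792 to 19990088 across the 16 libraries of 16-week mice, and levels are given as CPM, counts relative to the scaled library size. Ercc1 itself was at 1.55 ± 0.331 CPM in restricted and 1.51 ± 0.414 CPM in freely fed mutants, and at 3.52 ± 0.977 CPM in restricted and 2.59 ± 0.413 CPM in freely fed wild types (SD, n = 4 each), and every mutant library but 1 lay below every wild-type library. Its interaction was -0.41 ± 0.39 on the log2 scale (edgeR adjusted p = 0.686). After a log2 value, ± gives a standard error, taken as the absolute value divided by the square root of the test's F. Libraries of restricted mice were less alike than those of freely fed mice. The mean correlation of a library with the others of its group, over all tested genes, was 0.9728 to 0.9789 in restricted and 0.9801 to 0.9873 in freely fed mutants, and 0.9647 to 0.9709 in restricted and 0.9882 to 0.9912 in freely fed wild types. Transcripts of mitochondrial DNA made up 14.06 ± 0.649% of counts in restricted and 9.96 ± 0.654% in freely fed mutants, and 13.86 ± 2.07% in restricted and 11.12 ± 0.462% in freely fed wild types. The hepatocyte markers Alb, Apoa1 and Ttr were above 0 in all 16 libraries, the pancreatic markers Prss1 and Cpa1 and the fat cell marker Lep were at 0 in all 16, and none of 10 hepatocyte markers had a called interaction. In whole liver, fewer cells of a type and less RNA per cell cannot be told apart. Libraries of a group carry numbers in the labels, which do not say that they came from different animals, and every p-value therefore rests on the variation among these libraries. The 36 pairs of libraries within groups differed by more than counting error, with a chi-square of 8.32 to 72.7 per degree of freedom, but these values do not separate animals from library preparation.

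Of the 12690 genes, 190 had a called interaction (1.5%), 115 with a higher response in the mutant (0.906%) and 75 with a lower one (0.591%). The absolute log2 interaction of the called genes had a median of 1.47 and exceeded 1 in 142 of them. Restriction changed 1426 genes in the mutant (11.2%), 623 up (4.91%) and 803 down (6.33%), and 1726 in the wild type (13.6%), 800 up (6.3%) and 926 down (7.3%). Of the 519 genes called for diet in both genotypes, 499 moved the same way, and across all tested genes the pair of diet effects had a correlation of 0.57, given as a description over genes that are not independent. The 190 genes were sorted by the diet effects whose difference chose them, so these classes are a description and no further evidence. Shares of the classes over all tested genes are not given here. In 82 of the 190 genes the diet effect was called in the mutant only, 38 of them with a positive and 44 with a negative interaction. In 67 it was called in the wild type only, 48 with a positive and 19 with a negative interaction. Restriction moved 20 genes in opposite directions in the genotypes, 16 of them up in the mutant and down in the wild type, and 4 down in the mutant and up in the wild type. In 18 genes both genotypes moved the same way to unequal extents, and in 3 neither diet effect was called by itself. Between mutant and wild type, 18.3% of all tested genes differed under restriction and 9.94% on free feeding. These shares include genes called under both diets. The interaction is equally the genotype difference under restriction minus that on free feeding, so the split that follows is also a description. Of the 190 genes, 99 differed under restriction but were not called on free feeding, 50 differed on free feeding but were not called under restriction, 18 differed in opposite directions and 18 in the same direction under both diets, and 5 were called under neither. At the threshold, Impdh2, Aqp4 and 2210408I21Rik were the last genes inside (edgeR adjusted p = 0.0493 each), and Glyat, Gulo and Arrb2 the first outside (edgeR adjusted p = 0.0501 each). The number of calls leaned on single libraries: it was 113 without replicate 1 and 120 without replicate 3 of the freely fed mutant, and 125 without replicate 3 and 109 without replicate 4 of the freely fed wild type. In 93 genes the call held in each of the 16 fits that left out 1 library.

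**Figure D1:**
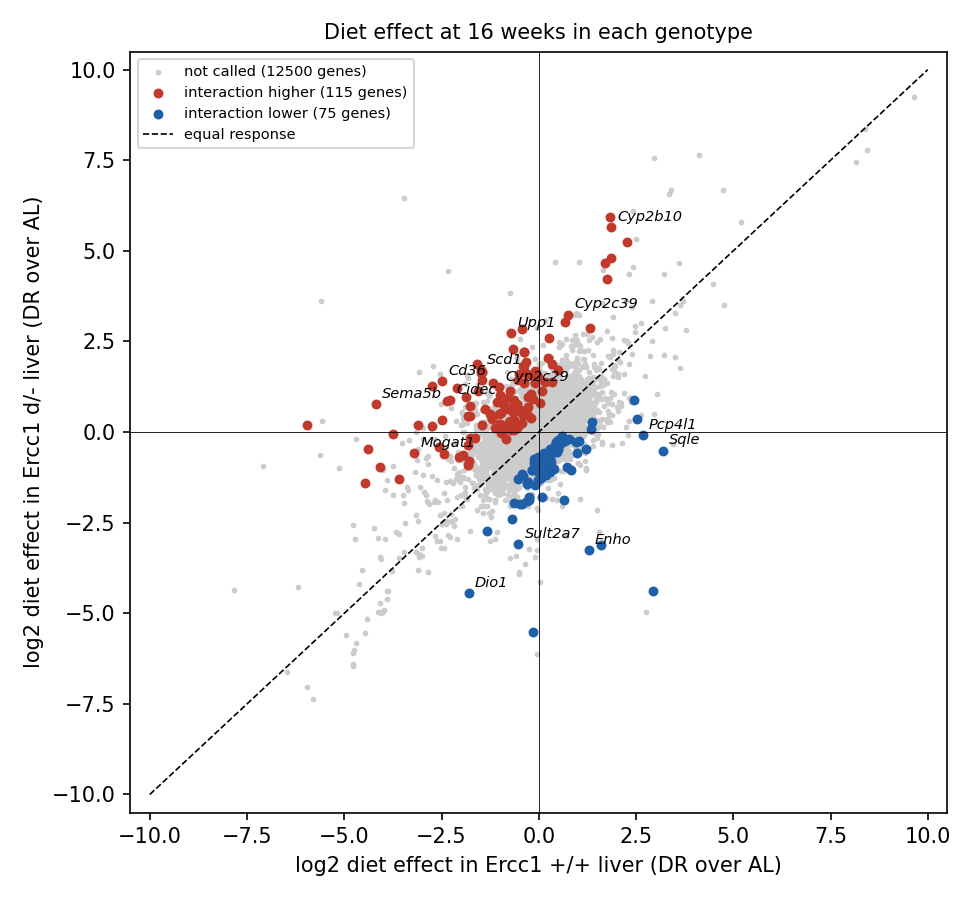
Log2 diet effect (DR over AL) in Ercc1 d/- liver against that in Ercc1 +/+ liver at 16 weeks for all 12690 tested genes, with 115 genes of called positive interaction in red and 75 of called negative interaction in blue; the dashed line marks an equal response. Cd36 and Scd1 lie in the upper left quadrant, up in the mutant and down in the wild type, and Enho lies in the lower right.

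**Figure D2:**
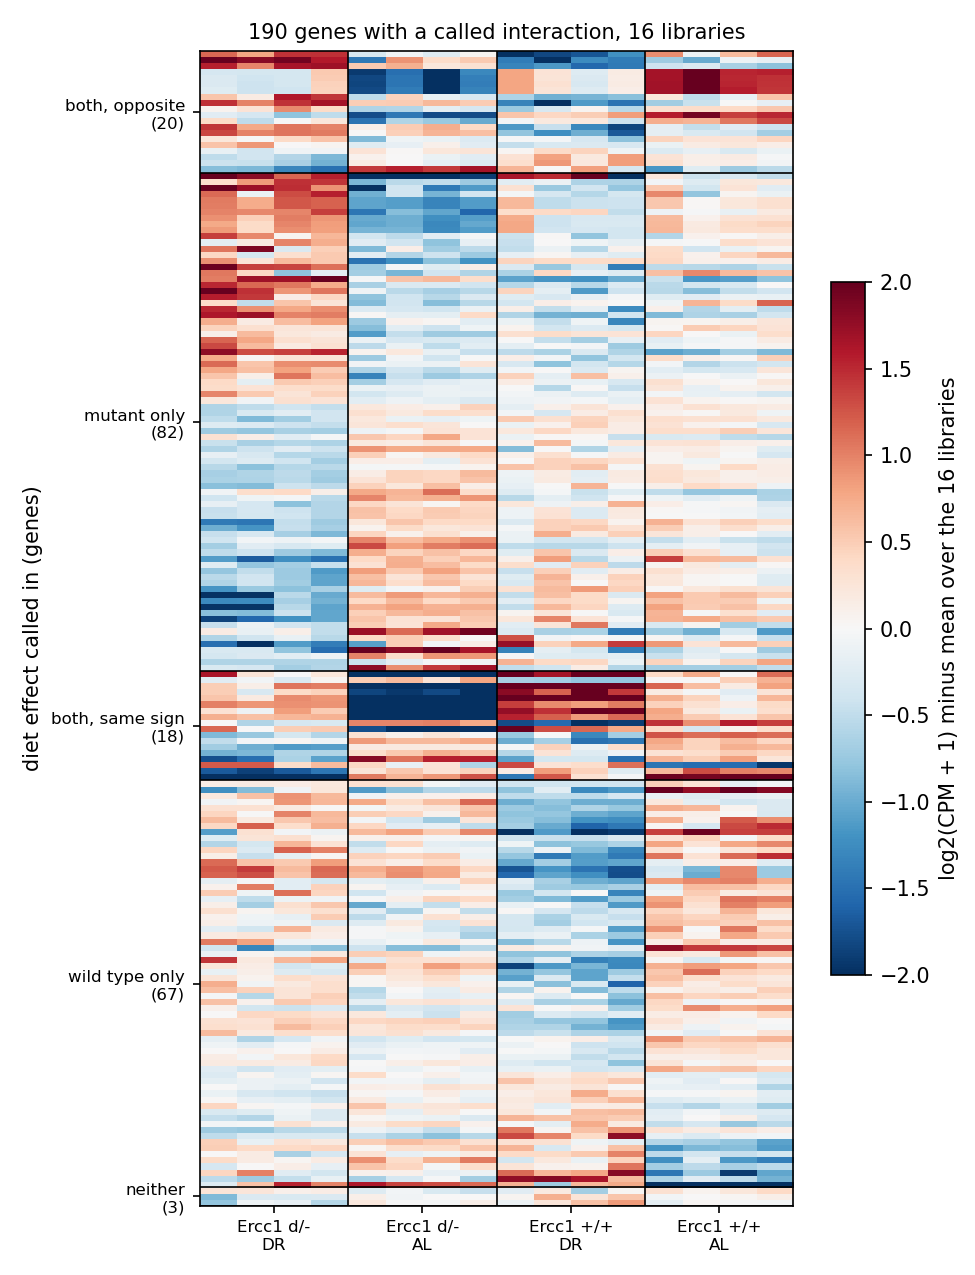
Levels of the 190 genes (rows) in the 16 libraries of 16-week mice (columns), as log2(CPM + 1) minus the gene's mean over these libraries, grouped by where the diet effect was called. The 82 genes called in the mutant only differ between the first and second block of columns, and the 67 called in the wild type only differ between the third and the fourth.

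Cytochrome P450 genes of the Cyp2c, Cyp3a and Cyp2b families had called interactions, in both directions for Cyp2c and only positive ones for Cyp3a and Cyp2b. Of 43 tested genes of CAR, PXR and their targets, 11 had a positive and none a negative called interaction (25.58% called, against 1.5% of all tested genes). The list median was 0.47, against -0.04 over all tested genes. The 11 include Cyp3a16, Cyp3a41a, Cyp3a44 and Cyp3a11, which may share reads as described below, so they are not 11 separate observations. Of 15 tested Cyp2c genes, whose enzymes oxidize drugs, arachidonic acid and steroids, 9 were called, 4 positive and 5 negative, all within 1 cluster on chromosome 19. Cyp2c genes other than Cyp2c29 and Cyp2c39 in this account were chosen after their values were seen. Cyp2c29 (chr19:39269405-39330713, GRCm38), Cyp2c38 (chr19:39389556-39463075) and Cyp2c39 (chr19:39510862-39568529) stand side by side and were all positive, with log2 interactions of 2.26, 2.37 and 2.49. The next 4 genes, Cyp2c67, Cyp2c68, Cyp2c40 and Cyp2c69, were all negative, with log2 interactions of -1.36, -1.12, -1.37 and -1.38. Cyp2c66, upstream of the positive block, was the fifth negative gene, at -1.29. Cyp2c37, Cyp2c54, Cyp2c50 and Cyp2c70, which follow them, had no called interaction, with log2 values of 0.29, 0.43, 0.53 and -0.14. Because these neighbours of opposite response are close relatives, the promoters of 3 genes of each kind are shown, each with the 250 bases before and 50 after the RefSeq start (GRCm38.p6), 5′ to 3′ on the gene's strand. Capitals mark the nuclear receptor core motif AGNTCA on either strand.
Cyp2c29 (chr19:39286835-39287134, plus strand): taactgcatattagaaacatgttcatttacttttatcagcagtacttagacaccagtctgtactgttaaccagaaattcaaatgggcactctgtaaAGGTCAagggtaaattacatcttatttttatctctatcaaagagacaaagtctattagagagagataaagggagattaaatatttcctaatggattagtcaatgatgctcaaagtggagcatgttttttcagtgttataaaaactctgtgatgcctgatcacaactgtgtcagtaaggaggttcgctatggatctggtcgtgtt
Cyp2c38 (chr19:39463026-39463325, minus strand): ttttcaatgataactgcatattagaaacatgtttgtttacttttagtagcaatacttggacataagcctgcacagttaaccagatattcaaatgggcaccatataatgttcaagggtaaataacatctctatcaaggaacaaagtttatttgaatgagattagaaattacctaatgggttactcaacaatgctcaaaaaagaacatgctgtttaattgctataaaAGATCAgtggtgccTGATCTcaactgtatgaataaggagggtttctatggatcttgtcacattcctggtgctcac
Cyp2c39 (chr19:39510572-39510871, plus strand): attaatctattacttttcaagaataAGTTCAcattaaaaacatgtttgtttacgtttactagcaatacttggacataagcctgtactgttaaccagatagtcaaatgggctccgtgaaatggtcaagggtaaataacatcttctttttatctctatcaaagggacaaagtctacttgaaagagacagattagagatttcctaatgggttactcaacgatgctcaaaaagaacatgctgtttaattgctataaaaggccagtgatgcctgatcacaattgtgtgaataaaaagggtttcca
Cyp2c67 (chr19:39648993-39649292, minus strand): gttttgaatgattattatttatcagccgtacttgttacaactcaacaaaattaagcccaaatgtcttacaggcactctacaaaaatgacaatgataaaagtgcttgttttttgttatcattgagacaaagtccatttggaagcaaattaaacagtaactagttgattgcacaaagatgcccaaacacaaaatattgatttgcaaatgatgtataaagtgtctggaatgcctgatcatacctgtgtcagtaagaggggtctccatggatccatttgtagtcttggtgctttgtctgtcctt
Cyp2c40 (chr19:39812765-39813064, minus strand): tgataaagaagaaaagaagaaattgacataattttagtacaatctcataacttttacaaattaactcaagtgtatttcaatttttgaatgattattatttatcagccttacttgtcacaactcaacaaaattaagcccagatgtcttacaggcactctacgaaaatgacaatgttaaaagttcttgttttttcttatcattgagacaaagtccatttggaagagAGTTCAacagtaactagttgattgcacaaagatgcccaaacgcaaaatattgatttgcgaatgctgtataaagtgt
Cyp2c69 (chr19:39886720-39887019, minus strand): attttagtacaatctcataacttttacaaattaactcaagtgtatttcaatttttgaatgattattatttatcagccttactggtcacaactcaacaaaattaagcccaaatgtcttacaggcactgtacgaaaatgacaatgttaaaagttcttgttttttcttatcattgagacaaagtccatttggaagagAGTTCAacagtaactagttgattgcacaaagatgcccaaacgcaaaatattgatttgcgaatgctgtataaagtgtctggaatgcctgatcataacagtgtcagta
The 3 promoters of the positive genes were 69.0% to 72.6% identical to each other in global alignments, and those of the negative genes 53.9% to 80.9%. Between the kinds identity was 46.9% to 58.7%, which overlaps the range of the negative genes. The windows are set by the RefSeq starts and are not in register. That of Cyp2c40 ends at a stretch past which those of Cyp2c67 and Cyp2c69 continue. The percentages therefore also depend on where the starts are placed. The RefSeq start of Cyp2c29 lies 17680 bases inside the annotated gene, and those of the other 5 lie within 40 bases of the annotated start. Such motifs numbered 1 in Cyp2c29, 2 in Cyp2c38, 1 in Cyp2c39, 0 in Cyp2c67, 1 in Cyp2c40 and 1 in Cyp2c69, and 46.57% of all 32851 RefSeq mouse promoters of this length hold at least 1. Of the 190 genes, 157 had an entry, and 51.44% of their 208 promoters hold the motif. The letters TTCNNNGAA, a form bound by STAT5, the growth hormone-activated factor behind much of the sex difference in liver, occur in none of the promoters printed here and in 8.30% of all.

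The blocks were told apart by the sign of the interaction, so the levels behind it are given as a description. Cyp2c39 stood at 597, 551, 562 and 555 CPM in restricted mutants, against 63, 59.4, 62.9 and 54.5 CPM in freely fed mutants. In wild types it was at 781, 576, 529 and 612 CPM under restriction, against 408, 367, 325 and 387 CPM on free feeding. The freely fed mutant libraries were far below the other 12, and the restricted libraries of both genotypes overlapped. Its interaction was 2.49 ± 0.28 (edgeR adjusted p = 1.33e-05), from a diet effect of 3.24 ± 0.22 in the mutant and 0.75 ± 0.20 in the wild type. Between mutant and wild type it differed by -2.63 on free feeding and by -0.14 under restriction (edgeR adjusted p = 2.38e-08 and 0.67). Cyp2c38 resembled it, with 301 ± 11.5 CPM in restricted and 36.5 ± 5.22 CPM in freely fed mutants, and 439 ± 88.8 CPM in restricted and 274 ± 34.7 CPM in freely fed wild types. Its difference between genotypes under restriction was not called (log2 -0.54, edgeR adjusted p = 0.086). Cyp2c29 moved in opposite directions. It was at 300, 278, 200 and 246 CPM in restricted mutants, against 102, 129, 101 and 101 CPM in freely fed mutants. Wild types had 518, 468, 494 and 628 CPM under restriction, against 1040, 1320, 907 and 997 CPM on free feeding. No diet pair overlapped, and its interaction was 2.26 ± 0.24 (edgeR adjusted p = 1.33e-05). In the negative block, Cyp2c40 was at 303, 338, 267 and 213 CPM in restricted mutants, against 670, 530, 647 and 538 CPM in freely fed mutants. In wild types it had 376, 711, 474 and 612 CPM under restriction, against 515, 456, 440 and 375 CPM on free feeding. The mutant diets were separate and the wild-type diets overlapped, with diet effects of -1.09 ± 0.17 in the mutant and 0.28 ± 0.17 in the wild type. Counts of Cyp2c69 stayed at 0.763 to 0.894 times those of Cyp2c40 in all 24 libraries, so the values of these near copies may rest on shared reads. Cyp2c55, further upstream and known as a PXR and CAR target, had an interaction of 1.97 ± 0.48 (edgeR adjusted p = 0.0374), a call that held in 6 of 16 fits that each left out 1 library (log2 1.67 to 2.21, edgeR adjusted p up to 0.0831).

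**Figure D3:**
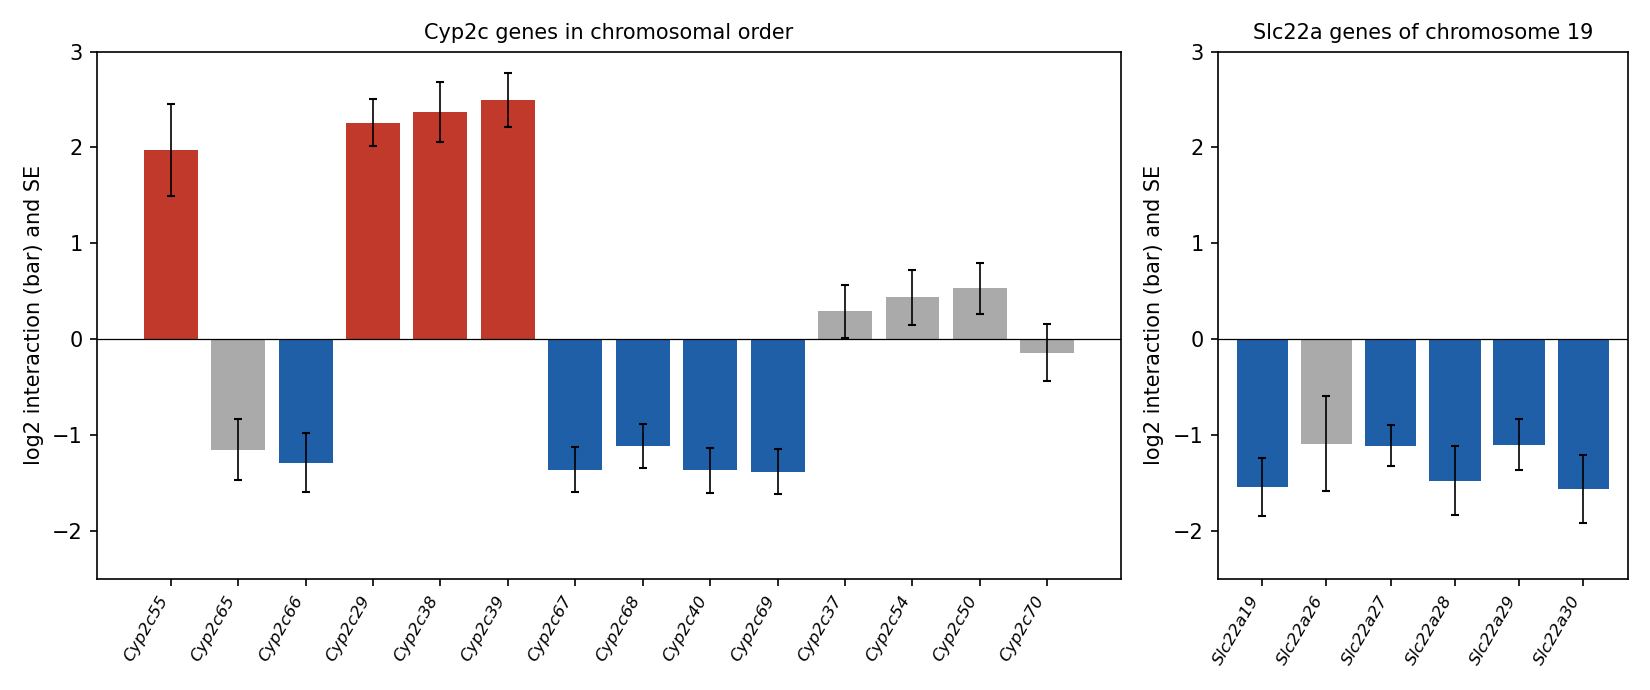
Log2 interaction (bars) with its standard error for the Cyp2c genes of the chromosome 19 cluster (left) and the Slc22a genes of chromosome 19 (right), in chromosomal order; red and blue bars are called positive and negative, grey bars not called. The positive block runs from Cyp2c29 to Cyp2c39 and the negative block from Cyp2c67 to Cyp2c69.

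The Cyp3a genes, whose products are the main drug and steroid hydroxylases of liver, were positive in 5 of 9 tested members. Cyp3a11 (chr5:145854426-145879964), the classical PXR target, stood at 1960, 1500, 2270 and 2060 CPM in restricted mutants, against 561, 586, 470 and 567 CPM in freely fed mutants. Wild types had 1970, 868, 940 and 935 CPM under restriction, against 1810, 1310, 1510 and 1570 CPM on free feeding. Its levels were lowest in freely fed mutants, and in wild types 3 of the restricted libraries lay below the freely fed range and replicate 1 above it. The interaction was 2.23 ± 0.30 (edgeR adjusted p = 0.000156). Cyp3a41a and Cyp3a41b, female-predominant members, had interactions of 2.59 ± 0.30 (edgeR adjusted p = 1.33e-05) and 2.59 ± 0.30 (edgeR adjusted p = 1.33e-05). Cyp3a41a averaged 721 ± 106 CPM in restricted and 155 ± 12.5 CPM in freely fed mutants, and 323 ± 145 CPM in restricted and 420 ± 62.9 CPM in freely fed wild types. The count ratio of the Cyp3a41 copies stayed between 0.983 and 0.993, so they are not separate observations, and that of Cyp3a44 to Cyp3a41a lay between 0.917 and 1.26. The ratio of Cyp3a16 to Cyp3a41a was 0.621 to 0.904. Cyp3a16 also followed Cyp3a11, with means of 469 and 132 CPM in restricted and freely fed mutants, and 278 and 364 CPM in wild types. The 5 called Cyp3a genes may thus share reads and are not 5 separate observations. All 5 tested Cyp2b genes, among them Cyp2b10, the classical CAR target, were positive. Cyp2b10 (chr7:25897620-25926624) was at 48.9, 18.3, 15.2 and 17.8 CPM in restricted mutants, against 0.189, 0.57, 0.499 and 0.699 CPM in freely fed mutants. It was at 123, 50.2, 83.6 and 86.4 CPM in restricted wild types, against 20.1, 26.1, 15.2 and 33.9 CPM in freely fed wild types. Restriction raised it in both genotypes, with no overlap, by a log2 of 5.65 ± 0.58 in the mutant and 1.85 ± 0.41 in the wild type, and the interaction was 3.80 ± 0.72 (edgeR adjusted p = 0.00675). Restricted mutants still had less of it than restricted wild types (log2 -1.78, edgeR adjusted p = 0.00442). Cyp2b13 and Cyp2b9, female-predominant in mouse liver, had interactions of 2.95 and 2.96, and the call of Cyp2b9 held in 8 of 16 fits that each left out 1 library (log2 2.76 to 3.18, edgeR adjusted p up to 0.0734). The promoters of Cyp3a11 and Cyp2b10, as the clearest PXR and CAR targets among the called genes, follow with the same marking.
Cyp3a11 (chr5:145879805-145880104, minus strand): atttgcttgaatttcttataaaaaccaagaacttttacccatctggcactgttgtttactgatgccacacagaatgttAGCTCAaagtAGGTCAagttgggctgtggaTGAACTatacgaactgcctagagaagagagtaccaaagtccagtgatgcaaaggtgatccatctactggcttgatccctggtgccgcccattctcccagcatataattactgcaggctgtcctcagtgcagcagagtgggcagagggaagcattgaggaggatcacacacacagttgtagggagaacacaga
Cyp2b10 (chr7:25897408-25897707, plus strand): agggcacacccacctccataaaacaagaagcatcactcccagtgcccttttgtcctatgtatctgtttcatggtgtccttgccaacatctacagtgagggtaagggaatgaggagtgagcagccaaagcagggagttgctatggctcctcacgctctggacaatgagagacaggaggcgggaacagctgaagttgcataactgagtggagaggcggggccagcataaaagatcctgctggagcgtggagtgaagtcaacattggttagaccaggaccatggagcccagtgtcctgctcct
Cyp3a11 has 3 core motifs in this window and Cyp2b10 has none, which says nothing of sites outside it. Gstt3, a glutathione S-transferase and CAR-responsive gene, was at 19.1, 18.7, 18.9 and 25.3 CPM in restricted mutants, against 2.71, 4.62, 3.92 and 2.35 CPM in freely fed mutants. Wild types had 11.9, 12.3, 12.6 and 6.21 CPM under restriction, against 8.45, 8.91, 8.14 and 10.4 CPM on free feeding, with overlap, and the interaction was 2.33 ± 0.30 (edgeR adjusted p = 9.79e-05).

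Several of these P450 genes are also female-predominant in mouse liver. Of 38 tested female-biased genes, 8 had a positive and 3 a negative called interaction (28.95% called, against 1.5% of all tested genes), and the list median was 1.16. The 8 are Cyp3a16, Cyp3a41a, Cyp3a41b, Cyp3a44, Cyp2b9, Cyp2b13, Cyp2c39 and Cux2, and the 3 are Cyp2c40, Cyp2c69 and Slc22a27, so both directions occurred among genes of the same sex bias. The Cyp3a genes among the 8, and Cyp2c40 and Cyp2c69 among the 3, may share reads as described above. These counts are therefore not counts of independent genes. Of the 8, 5 also stand on the CAR and PXR list (Cyp3a16, Cyp3a41a, Cyp3a44, Cyp2b9 and Cyp2b13). Restriction raised 26 of the 38 in the mutant and 15 in the wild type, against 4.91% and 6.3% of all tested genes. Cux2, a transcription factor that represses male-biased genes in female mouse liver, stood at 76.8, 29.5, 18.6 and 24.6 CPM in restricted mutants, against 0.441, 0.399, 0.214 and 1.33 CPM in freely fed mutants. Wild-type values were 25.9, 23.6, 41.4 and 1.01 CPM under restriction, against 9.11, 5.46, 5.93 and 5.21 CPM on free feeding. Replicate 4 of the restricted wild type was below the freely fed range while its other 3 libraries were above. The interaction of 4.11 ± 1.03 (edgeR adjusted p = 0.0492) held in 4 of 16 fits that each left out 1 library (log2 3.49 to 4.85, edgeR adjusted p up to 0.113). Among 39 male-biased genes, restriction lowered 35 in the mutant and 33 in the wild type, against 6.33% and 7.3% of all tested genes. The median interaction of this list was -0.36, and 29 of the 39 values were negative. Of the 39, 1 had a positive and 1 a negative called interaction (5.13%, against 1.5% of all tested genes). The positive one was Treh, trehalase, at 14, 9.81, 13.7 and 16.1 CPM in restricted mutants, against 6.61, 6.72, 7.48 and 6.67 CPM in freely fed mutants. Wild types had 1.14, 0, 1.48 and 0.95 CPM under restriction, against 2.33, 2.99, 4.37 and 3.84 CPM on free feeding. Restriction raised it in the mutant and lowered it in the wild type, with no overlap in either, and its interaction was 2.84 ± 0.49 (edgeR adjusted p = 0.00196). The negative one was Nudt7, a peroxisomal coenzyme A hydrolase, which fell in both genotypes, with log2 diet effects of -2.73 ± 0.26 in the mutant and -1.33 ± 0.25 in the wild type. Its interaction of -1.40 ± 0.35 (edgeR adjusted p = 0.0408) held in 5 of 16 fits that each left out 1 library (log2 -1.64 to -1.23, edgeR adjusted p up to 0.0973).

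Of 27 tested genes of triglyceride metabolism and lipid droplets, 5 were called (18.5%, against 1.5% of all tested genes), all positive, with a list median of 0.63: Cd36, Cidec, Mogat1, Fitm1 and Pnpla2. Cd36 (chr5:17781690-17888801), the scavenger receptor that takes up fatty acids, was at 116, 89.9, 143 and 144 CPM in restricted mutants, against 41, 49.1, 43.1 and 53.8 CPM in freely fed mutants. It was at 10.7, 13.9, 15.1 and 21.8 CPM in restricted wild types, against 99.6, 48.1, 80.5 and 117 CPM in freely fed wild types. The diets did not overlap in either genotype and ran in opposite directions, with log2 diet effects of 1.40 ± 0.36 in the mutant and -2.49 ± 0.37 in the wild type. The interaction was 3.89 ± 0.52 (edgeR adjusted p = 0.000193). Pparg, the nuclear receptor that drives lipid storage and is known to act on Cd36 and Cidec, was outside the naming rule and was chosen after its values were seen. It had 6.42, 4.45, 5.9 and 6.29 CPM in restricted mutants, against 3.59, 2.62, 1.92 and 4.64 CPM in freely fed mutants. Wild types had 1.85, 1.65, 1.09 and 1.01 CPM under restriction, against 6.78, 4.06, 10.1 and 8.02 CPM on free feeding, and the interaction was 3.20 ± 0.51 (edgeR adjusted p = 0.000864). Cidec, a lipid droplet protein that enlarges droplets, averaged 13 ± 3.96 CPM in restricted and 7.04 ± 2.25 CPM in freely fed mutants. Its wild-type means were 2.87 ± 1.14 CPM under restriction and 14.2 ± 8.72 CPM on free feeding. The interaction was 3.17 ± 0.65 (edgeR adjusted p = 0.0118), and the diet effect was called in the wild type (log2 -2.29 ± 0.47) and not in the mutant (log2 0.88 ± 0.44). With limma voom and a spread for each group, the interactions of Cidec and Mogat1 were not called (adjusted p = 0.0769 and 0.0742). Mogat1, which makes diacylglycerol, had an interaction of 2.62 ± 0.44 (edgeR adjusted p = 0.0017), at 1.77 to 3.15 CPM in restricted and 2.48 to 4.42 CPM in freely fed mutants, and at 0.43 to 1.23 CPM in restricted and 3.66 to 9.66 CPM in freely fed wild types. Fitm1, which helps to form lipid droplets, fell in both genotypes. It was at 15, 9.49, 11.7 and 11.9 CPM in restricted mutants, against 30.5, 30.4, 31 and 26.1 CPM in freely fed mutants. Wild types had 3.61, 4.44, 1.8 and 3.29 CPM under restriction, against 42.7, 29.2, 46.4 and 40.5 CPM on free feeding. The log2 diet effect was -1.30 ± 0.18 in the mutant and -3.59 ± 0.20 in the wild type, and the interaction was 2.30 ± 0.26 (edgeR adjusted p = 1.33e-05). Pnpla2, adipose triglyceride lipase, which breaks stored triglyceride down, rose in the mutant (log2 1.89 ± 0.27) and was at 0.34 ± 0.26 in the wild type. Its interaction of 1.54 ± 0.37 (edgeR adjusted p = 0.0353) held in 6 of 16 fits that each left out 1 library (log2 1.27 to 1.86, edgeR adjusted p up to 0.0787). Cidec is also on the list of 8 adipocyte markers. Of the 4 of these that were tested, it alone had a called interaction, and their summed level was 93.0 to 99.6 CPM in restricted and 552.6 to 930.6 CPM in freely fed mutants, and 120.9 to 522 CPM in restricted and 913.6 to 1897 CPM in freely fed wild types. That sum includes Car3, which hepatocytes also express, while Adipoq was at 0 in 13 and Lep in all 16 libraries.

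The desaturase genes, which introduce the double bond of monounsaturated fatty acids and are targets of insulin and SREBP-1c, reversed their response between the genotypes. Scd1 (chr19:44394455-44407879) was at 616, 610, 609 and 1120 CPM in restricted mutants, against 205, 273, 114 and 317 CPM in freely fed mutants. Wild types had 1340, 937, 650 and 872 CPM under restriction, against 2460, 3650, 2220 and 2280 CPM on free feeding. All restricted mutant libraries were above, and all restricted wild-type libraries below, the freely fed libraries of their genotype. The interaction was 3.18 ± 0.56 (edgeR adjusted p = 0.00389). On free feeding the mutant had far less Scd1 than the wild type (log2 -3.54, edgeR adjusted p = 9.83e-06), and under restriction the difference was -0.36 (edgeR adjusted p = 0.564). Scd2, Scd3 and Scd4 gave interactions of 3.13, 3.12 and 3.11, but their counts stayed at 0.25 to 0.299, 0.262 to 0.321 and 0.175 to 0.206 times those of Scd1 in all 24 libraries, so they may hold reads of Scd1. Of 29 lipogenesis genes, 4 were called (13.8%, against 1.5% of all tested genes), all positive, with a list median of 0.02. They were Scd1, Scd2, Mogat1 and Insig2, an inhibitor of SREBP processing, whose interaction of 1.52 ± 0.34 (edgeR adjusted p = 0.0202) held in 13 of 16 fits that each left out 1 library (log2 1.27 to 1.70, edgeR adjusted p up to 0.0568). Fatty acid synthase and the other members were not called. Of 50 tested PPARalpha targets and genes of fatty acid oxidation, Cidec and Fitm1 were called (4%, against 1.5% of all tested genes).

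**Figure D4:**
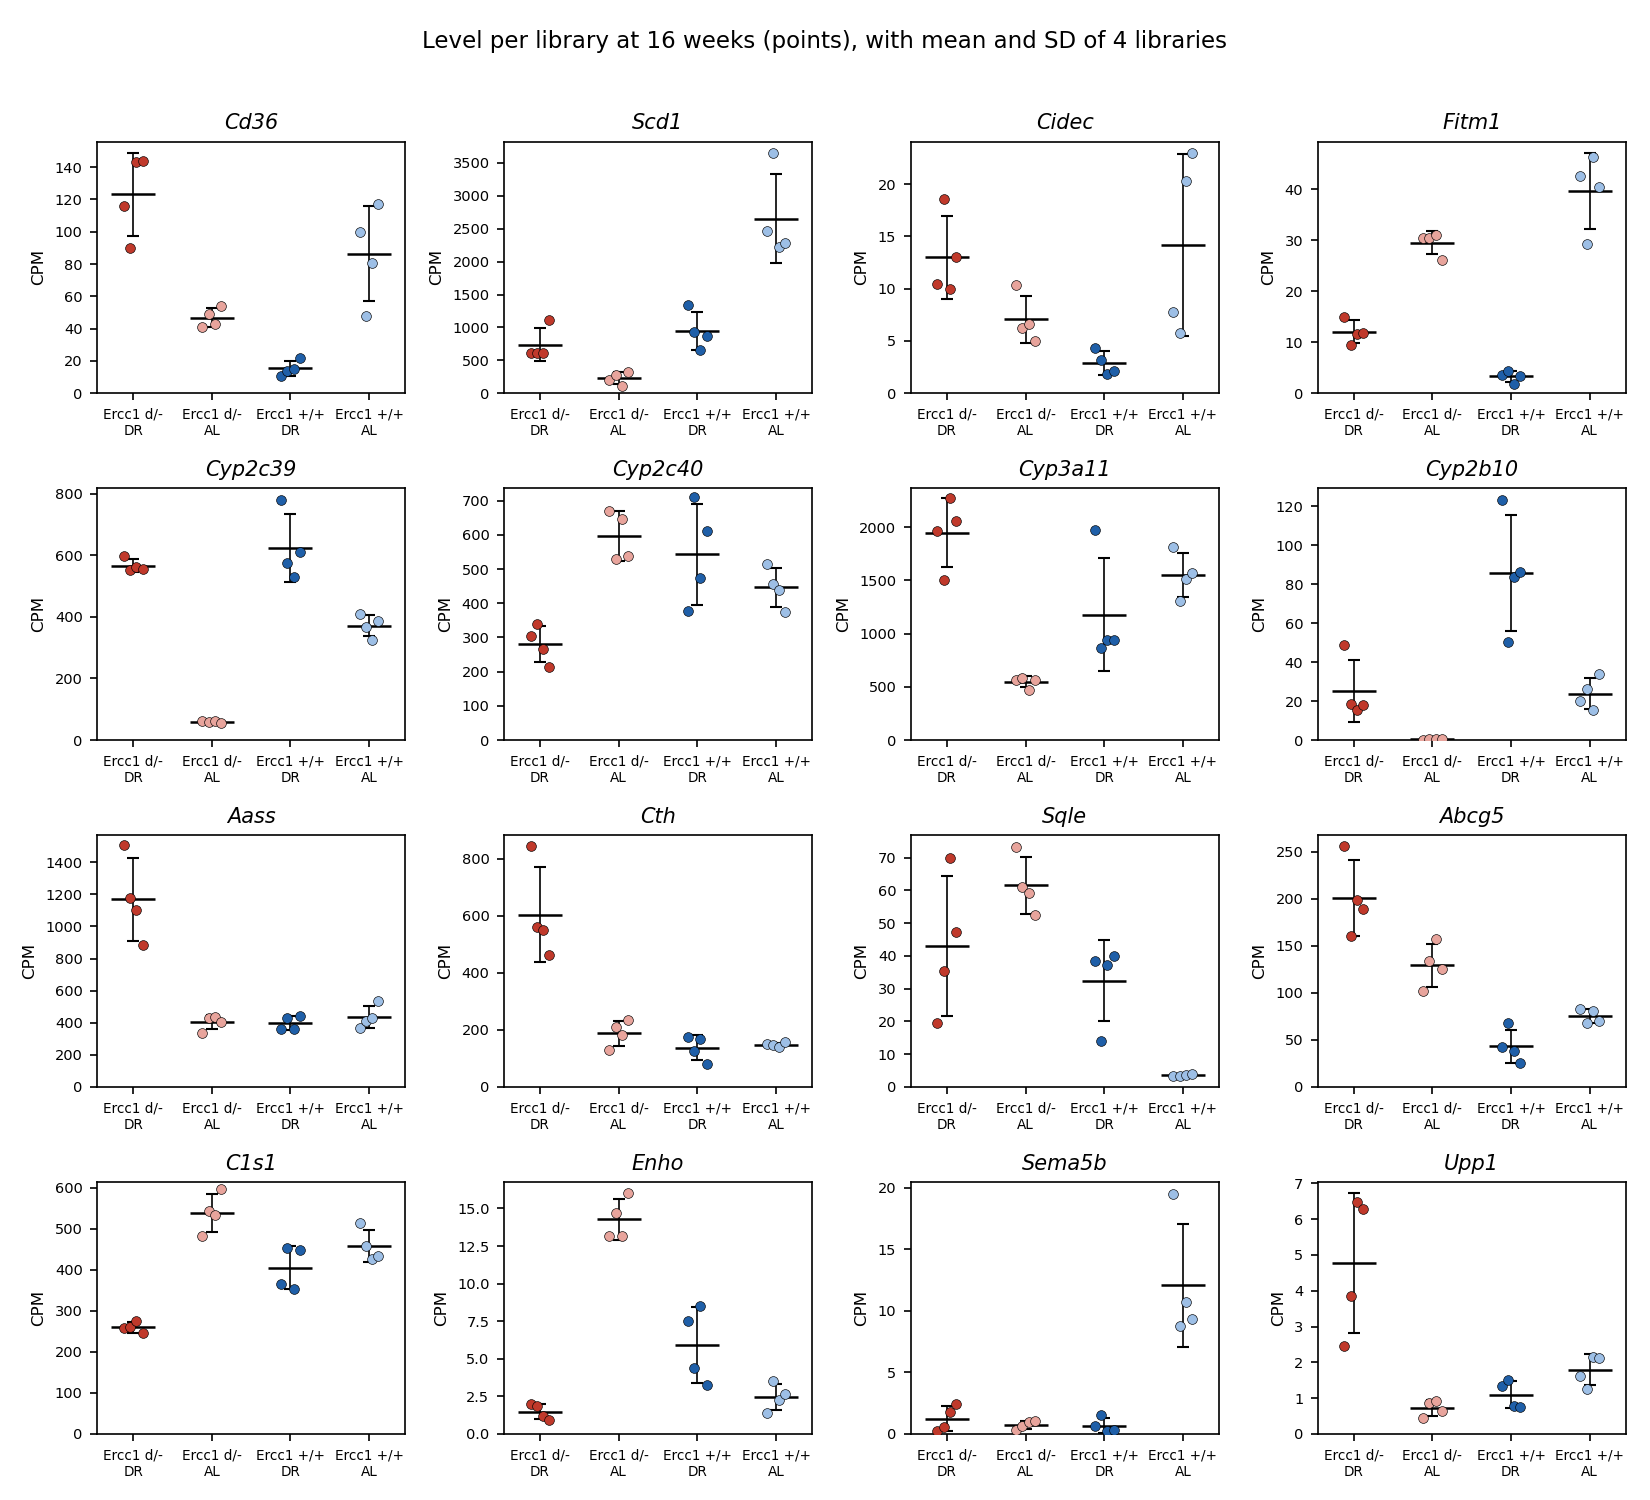
CPM in each of the 16 libraries of 16-week mice (points) for 16 of the called genes, in the order restricted and freely fed Ercc1 d/-, then restricted and freely fed Ercc1 +/+, with the mean and SD of 4 libraries. Cd36 and Scd1 are higher under restriction in the mutant and lower in the wild type, Aass and Cth are high in restricted mutants, and Sqle is low in freely fed wild types.

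Of 43 tested genes of amino acid catabolism and the urea cycle, 6 had a called interaction (13.95%, against 1.5% of all tested genes), all positive, with a list median of 0.55. All 6 (Aass, Cth, Tdo2, Hal, Arg1 and Oat) rose under restriction in the mutant and were not called for diet in the wild type. Over the whole list restriction raised 18 and lowered 2 in the mutant, and raised 1 and lowered 6 in the wild type. Of all tested genes it raised 4.91% and lowered 6.33% in the mutant, and raised 6.3% and lowered 7.3% in the wild type. Aass (chr6:23072173-23132986), the first enzyme of lysine degradation, was at 1510, 1180, 1100 and 887 CPM in restricted mutants, against 339, 432, 437 and 405 CPM in freely fed mutants. Wild types had 358, 432, 362 and 440 CPM under restriction, against 366, 412, 430 and 535 CPM on free feeding. The restricted mutant libraries were above all others, and the other 3 groups overlapped. The interaction was 1.66 ± 0.21 (edgeR adjusted p = 5.15e-05). Cth (chr3:157894248-157925077), cystathionine gamma-lyase of the transsulfuration pathway and a source of hydrogen sulfide, was at 845, 561, 551 and 463 CPM in restricted mutants, against 131, 209, 182 and 234 CPM in freely fed mutants. Wild types had 175, 127, 169 and 82.1 CPM under restriction, against 149, 146, 140 and 157 CPM on free feeding. Its interaction was 1.78 ± 0.28 (edgeR adjusted p = 0.000864), and again only the restricted mutants stood apart. Cth was the single called gene among 24 tested genes of the ATF4 amino acid response (4.17%, against 1.5% of all tested genes). Etnppl (chr3:130617448-130637521), which breaks down phosphoethanolamine and is not on that list, was at 648, 430, 363 and 243 CPM in restricted mutants, against 30.1, 99.3, 48.4 and 58.9 CPM in freely fed mutants. Wild types had 161, 77.8, 99.9 and 75.6 CPM under restriction, against 188, 101, 158 and 111 CPM on free feeding, with overlap, and the interaction was 3.25 ± 0.46 (edgeR adjusted p = 0.000359). Smaller interactions were those of Tdo2, which opens the tryptophan ring, at 1.09 ± 0.26 (edgeR adjusted p = 0.0297), Hal, which deaminates histidine, at 1.05 ± 0.25 (edgeR adjusted p = 0.0353), and Arg1, the last enzyme of the urea cycle, at 0.76 ± 0.19 (edgeR adjusted p = 0.037). Tdo2 held in 9 of 16 fits that each left out 1 library (log2 0.93 to 1.24, edgeR adjusted p up to 0.0748), Hal in 7 of 16 fits that each left out 1 library (log2 0.86 to 1.18, edgeR adjusted p up to 0.0775) and Arg1 in 7 of 16 fits that each left out 1 library (log2 0.60 to 0.85, edgeR adjusted p up to 0.0831). Arg1 averaged 1992 ± 440 CPM in restricted and 1146 ± 91.7 CPM in freely fed mutants, and 1207 ± 72.3 CPM in restricted and 1177 ± 107 CPM in freely fed wild types. Oat, ornithine aminotransferase, had an interaction of 1.07 ± 0.27 (edgeR adjusted p = 0.0468) whose call held in 4 of 16 fits that each left out 1 library (log2 0.97 to 1.17, edgeR adjusted p up to 0.101). Etnppl, Hal and Arg1 are also the 3 called genes of 21 periportal hepatocyte genes (14.29%), and Oat is the single called gene of 21 pericentral ones (4.76%), against 1.5% of all tested genes. Upp1, uridine phosphorylase, low in all groups, was at 2.45, 3.86, 6.48 and 6.29 CPM in restricted mutants, against 0.441, 0.855, 0.926 and 0.636 CPM in freely fed mutants. Wild types had 1.33, 1.5, 0.771 and 0.76 CPM under restriction, against 1.61, 1.26, 2.16 and 2.12 CPM on free feeding, and the interaction was 3.43 ± 0.52 (edgeR adjusted p = 0.000501).

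**Figure D5:**
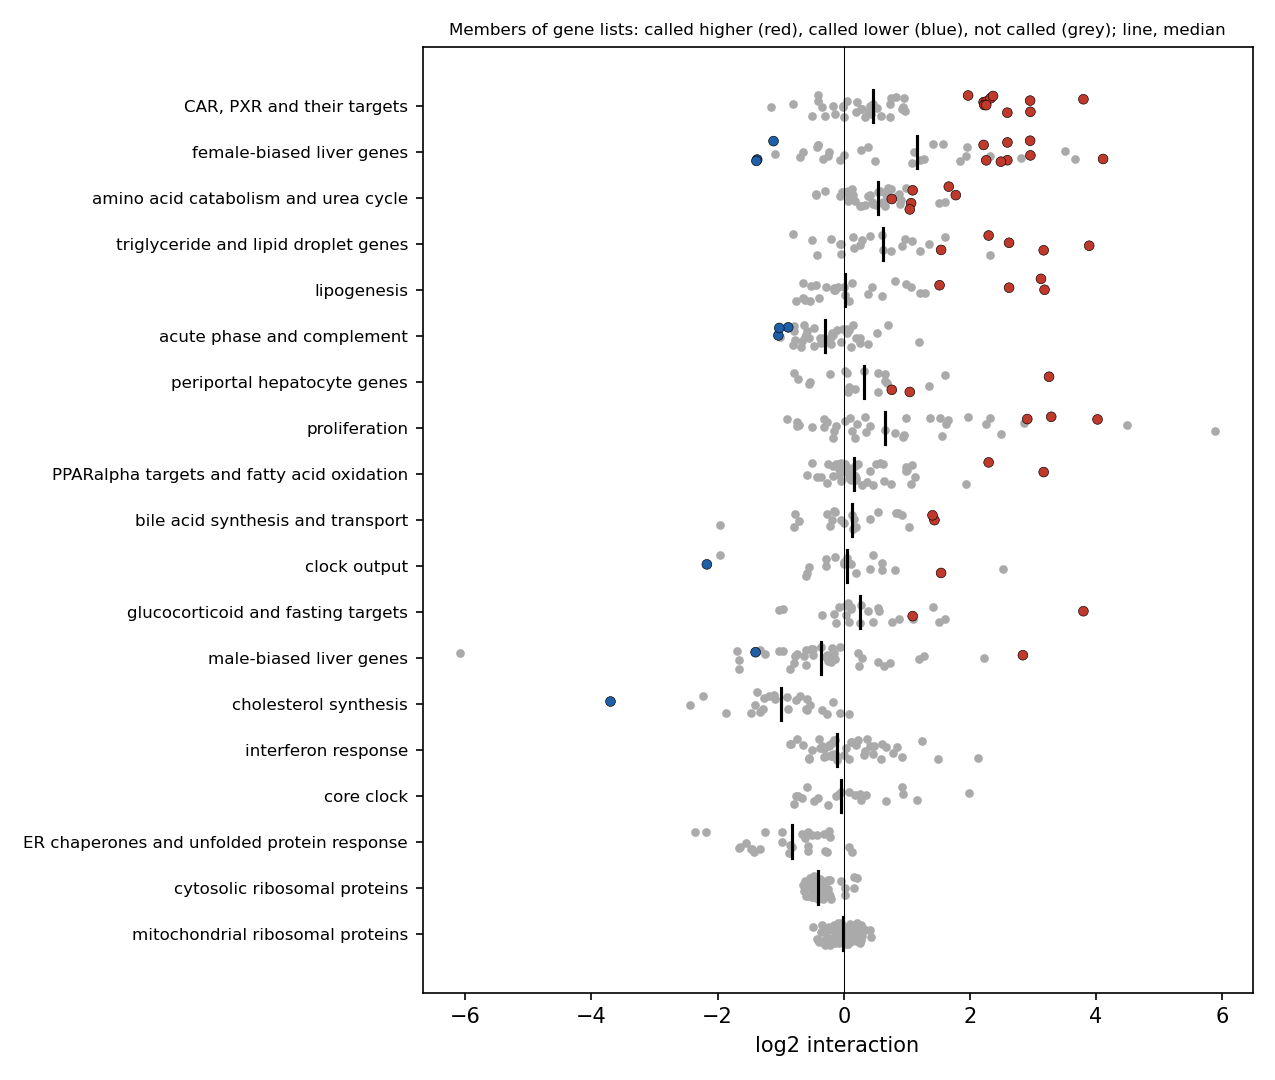
Log2 interaction of each tested member (points) of 19 gene lists, with the list median as a black line; called members are red (positive) or blue (negative). Called members of the CAR and PXR, amino acid, triglyceride and lipogenesis lists are all positive, while the members of the cholesterol synthesis and ER chaperone lists lie mostly below 0 with 1 call between them.

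Sterol genes ran in both directions. Sqle (chr15:59315077-59331192), squalene epoxidase, a rate-limiting enzyme of cholesterol synthesis, was at 19.4, 35.3, 70 and 47.2 CPM in restricted mutants, against 73.3, 60.9, 59.3 and 52.4 CPM in freely fed mutants. Wild types had 38.4, 13.9, 37.3 and 40 CPM under restriction, against 3.22, 3.46, 3.59 and 3.98 CPM on free feeding. The freely fed wild types were below the other 12 libraries, and restricted mutants overlapped both freely fed mutants and restricted wild types. The interaction was -3.70 ± 0.69 (edgeR adjusted p = 0.0065), with a diet effect called in the wild type (log2 3.19 ± 0.52) and not in the mutant (log2 -0.52 ± 0.46). Of the 26 cholesterol synthesis genes Sqle alone was called (3.85%, against 1.5% of all tested genes), although 25 had negative values and the list median was -0.99. Abcg5 (chr17:84658234-84683011) and Abcg8 (chr17:84676302-84700333), which together form the transporter that secretes cholesterol into bile, moved the other way. Abcg5 was at 256, 160, 199 and 189 CPM in restricted mutants, against 102, 134, 157 and 125 CPM in freely fed mutants. Wild types had 42, 67.8, 37.8 and 25.7 CPM under restriction, against 83.1, 67.5, 80.3 and 70.5 CPM on free feeding. All mutant libraries were above all wild-type libraries, and the interaction was 1.44 ± 0.28 (edgeR adjusted p = 0.00675). Abcg8 had an interaction of 1.41 ± 0.33 (edgeR adjusted p = 0.0291) that held in 9 of 16 fits that each left out 1 library (log2 1.13 to 1.69, edgeR adjusted p up to 0.0697). The gene bodies overlap on opposite strands, and whether counting used strand is not given in the sources used here, so their reads may not be fully separate. Slc10a2, the sodium-dependent bile acid transporter of ileum and bile duct cells, was chosen after its values were seen. It was at 3.74, 11.6, 8.76 and 8.36 CPM in restricted mutants, against 15, 16.7, 13.5 and 18.8 CPM in freely fed mutants. Wild types had 0.617, 3.65, 1.03 and 1.71 CPM under restriction, against 25.4, 38.7, 25.3 and 25.5 CPM on free feeding. Its interaction was 3.11 ± 0.64 (edgeR adjusted p = 0.0128), and 3.73 without replicate 2 of the restricted wild type. It was not called without replicate 4 of the restricted wild type and replicate 1 of the freely fed mutant together (edgeR adjusted p = 0.0618), and neither was Cyp2b13 (edgeR adjusted p = 0.056). None of 9 tested cholangiocyte markers had a called interaction, and their summed level was 320.7 to 506.3 CPM in restricted and 336.9 to 441.2 CPM in freely fed mutants, and 191.4 to 359.4 CPM in restricted and 194.4 to 502.2 CPM in freely fed wild types. Their part in the value of Slc10a2 was not tested.

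Of 43 tested acute phase and complement genes, 3 were called (6.98%, against 1.5% of all tested genes), all negative, with a list median of -0.29. They belong to the classical and lectin pathways of complement, and all 3 fell under restriction in the mutant and were not called for diet in the wild type. C1s1 (chr6:124530345-124542359), a protease of the C1 complex, was at 257, 260, 275 and 245 CPM in restricted mutants, against 483, 544, 534 and 596 CPM in freely fed mutants. Wild types had 365, 452, 354 and 449 CPM under restriction, against 513, 458, 427 and 433 CPM on free feeding. The restricted mutant libraries were below all others, and the interaction was -0.88 ± 0.14 (edgeR adjusted p = 0.00106). C1ra (chr6:124512405-124523443), the protease that cleaves C1s, averaged 212 ± 15.9 CPM in restricted and 406 ± 23.8 CPM in freely fed mutants. Wild-type means were 298 ± 51.9 CPM under restriction and 278 ± 16.1 CPM on free feeding, and the interaction was -1.04 ± 0.16 (edgeR adjusted p = 0.000501). The neighbouring copies C1rb and C1s2 had values of -1.04 and -0.86, at count ratios of 0.708 to 0.743 and 0.478 to 0.545 to C1ra and C1s1. Mbl2, mannose-binding lectin, averaged 403 ± 66.4 CPM in restricted and 844 ± 91.9 CPM in freely fed mutants, and 396 ± 63.3 CPM in restricted and 408 ± 66.7 CPM in freely fed wild types. It differed between genotypes on free feeding (log2 1.05, edgeR adjusted p = 0.000111) and was at 0.03 under restriction (edgeR adjusted p = 0.935). Its interaction of -1.02 ± 0.23 (edgeR adjusted p = 0.0228) held in 12 of 16 fits that each left out 1 library (log2 -1.10 to -0.91, edgeR adjusted p up to 0.0619). Macrophages also make C1 components. None of 23 tested macrophage and Kupffer cell markers was called, 20 had positive values, and their summed level was 367.7 to 539.9 CPM in restricted and 264.4 to 474.9 CPM in freely fed mutants, and 121.2 to 216.7 CPM in restricted and 157.6 to 246 CPM in freely fed wild types. Their part in the values of C1ra and C1s1 was not tested.

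The other negative genes described next include secreted factors, receptors, hormone-handling genes and transporters. The 75 negative genes were not classed by function. Enho (chr4:41638144-41640324), which encodes the peptide adropin, was at 1.98, 1.88, 1.17 and 0.907 CPM in restricted mutants, against 13.2, 14.7, 13.2 and 16 CPM in freely fed mutants. Wild types had 7.54, 4.37, 8.48 and 3.23 CPM under restriction, against 1.39, 3.53, 2.22 and 2.67 CPM on free feeding. It fell in the mutant (log2 -3.25 ± 0.37) and rose in the wild type (log2 1.28 ± 0.36), where replicate 4 of the restricted libraries was within the freely fed range, and the interaction was -4.53 ± 0.52 (edgeR adjusted p = 1.33e-05). Dnai1, whose annotated end overlaps that of Enho on the opposite strand, had a mean of 0.156 ± 0.146 CPM in restricted and 3.5 ± 1.1 CPM in freely fed mutants, and it may hold reads of Enho. Dio1 (chr4:107291465-107307169), the deiodinase that activates thyroid hormone, fell in both genotypes, to 4.03, 2.04, 0.759 and 0.972 CPM in restricted mutants, against 44.9, 34.8, 39.6 and 52.9 CPM in freely fed mutants. Wild types had 7.31, 51.7, 26.5 and 20.8 CPM under restriction, against 86.1, 83.4, 96.6 and 102 CPM on free feeding. The interaction was -2.65 ± 0.62 (edgeR adjusted p = 0.0353), it held in 3 of 16 fits that each left out 1 library (log2 -3.27 to -2.09, edgeR adjusted p up to 0.0771), and it was -3.27 without replicate 1 of the restricted mutant. Dio1 was the single call among 17 tested thyroid hormone response genes (5.88%, against 1.5% of all tested genes). Avpr1a, the hepatic vasopressin receptor, rose in the wild type (log2 2.52 ± 0.37) and was at 0.35 ± 0.34 in the mutant. Its interaction of -2.17 ± 0.50 (edgeR adjusted p = 0.0279) held in 9 of 16 fits that each left out 1 library (log2 -2.51 to -1.85, edgeR adjusted p up to 0.0682). Igfbp2, an IGF-binding protein and the single call among 23 growth hormone and IGF1 axis genes (4.35%), averaged 576 ± 166 CPM in restricted and 313 ± 93.5 CPM in freely fed mutants. In wild types it averaged 546 ± 197 CPM under restriction and 100 ± 14.6 CPM on free feeding. Its interaction of -1.57 ± 0.39 (edgeR adjusted p = 0.0448) held in 5 of 16 fits that each left out 1 library (log2 -1.73 to -1.36, edgeR adjusted p up to 0.108). Inhbc, the activin C subunit made by hepatocytes and chosen after its values were seen, was at 8.17 to 15.2 CPM in restricted and 39 to 47.6 CPM in freely fed mutants, and at 31.5 to 64.7 CPM in restricted and 46.8 to 55.4 CPM in freely fed wild types, with an interaction of -1.64 ± 0.30 (edgeR adjusted p = 0.00402). Sult2a7, a bile acid and steroid sulfotransferase gene, was at 0.583 to 2.68 CPM in restricted and 13.2 to 19.6 CPM in freely fed mutants, and at 0.76 to 3.01 CPM in restricted and 1.78 to 3.53 CPM in freely fed wild types. Its interaction of -2.58 ± 0.61 (edgeR adjusted p = 0.0327) held in 7 of 16 fits that each left out 1 library (log2 -2.84 to -2.20, edgeR adjusted p up to 0.0821). The 5 organic anion transporter genes of the Slc22a cluster on chromosome 19 (Slc22a19, Slc22a27, Slc22a28, Slc22a29 and Slc22a30) with called interactions were also negative, from -1.57 to -1.10, with Slc22a26 between them at -1.09 and not called. The call of Slc22a28 held in 5 of 16 fits that each left out 1 library (log2 -1.83 to -1.27, edgeR adjusted p up to 0.0808), and its count ratio to Slc22a30 was near constant, with the second at 1.31 to 1.44 times the first.

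Sema5b (chr16:35541145-35664732), a membrane semaphorin, had the largest positive interaction among the genes with a mean of at least 2 CPM. It was at 0.233, 0.59, 1.75 and 2.4 CPM in restricted mutants, against 0.315, 0.627, 0.926 and 1.02 CPM in freely fed mutants. Wild types had 0.664, 1.5, 0.193 and 0.317 CPM under restriction, against 19.5, 8.78, 10.7 and 9.32 CPM on free feeding. The freely fed wild types stood apart from the other 12 libraries, and the interaction was 4.96 ± 0.75 (edgeR adjusted p = 0.000526), or 5.63 without replicate 2 of the restricted wild type. Olig1, a transcription factor best known from oligodendrocytes, averaged 25 ± 8.95 CPM in restricted and 6.78 ± 3.93 CPM in freely fed mutants. Its means in wild types were 1.17 ± 0.595 CPM under restriction and 3.6 ± 1.33 CPM on free feeding, and the interaction was 3.47 ± 0.67 (edgeR adjusted p = 0.00687), which limma voom with a spread for each group did not call (adjusted p = 0.0572). Pcp4l1, a small calmodulin-binding protein gene, was at 1.29 to 2.4 CPM in restricted and 1.33 to 2.71 CPM in freely fed mutants. Wild types had 11.8, 12.4, 10.8 and 4.81 CPM under restriction, against 1.44, 2.2, 1.62 and 0.96 CPM on free feeding. The restricted wild types were above all 12 other libraries, and its interaction was -2.76 ± 0.45 (edgeR adjusted p = 0.00106). Dclk3, a kinase gene, averaged 2.08 ± 0.839 CPM in restricted and 7.56 ± 3.39 CPM in freely fed mutants, and 18.6 ± 7.81 CPM in restricted and 12 ± 2.21 CPM in freely fed wild types. Its interaction of -2.51 ± 0.59 (edgeR adjusted p = 0.0333) held in 5 of 16 fits that each left out 1 library (log2 -2.77 to -2.24, edgeR adjusted p up to 0.0726). Hs3st6, a heparan sulfate sulfotransferase gene, had an interaction of -1.87 ± 0.48 (edgeR adjusted p = 0.0472) that rested on replicate 1 of the restricted wild type at 7.12 CPM. Without that library it was -1.25 (edgeR adjusted p = 0.105), and the call held in 5 of 16 fits that each left out 1 library (log2 -2.04 to -1.25, edgeR adjusted p up to 0.114).

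Of 39 tested proliferation genes, 3 were called (7.69%, against 1.5% of all tested genes), all positive, with a list median of 0.65. Restriction lowered 11 of the 39 in the mutant and 18 in the wild type, against 6.33% and 7.3% of all tested genes. Cenpm, a centromere protein gene that is not on that list, was at 8.87, 5.58, 9.46 and 9.79 CPM in restricted mutants, against 3.78, 4.5, 2.92 and 3.11 CPM in freely fed mutants. Wild types had 0.332, 0.501, 0.128 and 0.253 CPM under restriction, against 1.5, 1.73, 1.14 and 0.891 CPM on free feeding. The diets were separate and opposite in the genotypes, and the interaction was 3.33 ± 0.57 (edgeR adjusted p = 0.00194). The 3 list members were Cdc20, which switches on the ubiquitin ligase of anaphase, Hmmr, a spindle protein gene, and Racgap1, needed for cytokinesis. Cdc20 was at 1.07 to 3.15 CPM in restricted and 1.21 to 2.29 CPM in freely fed mutants, and at 0 to 0.215 CPM in restricted and 0.685 to 1.28 CPM in freely fed wild types. Its interaction of 3.29 ± 0.79 (edgeR adjusted p = 0.0342) held in 6 of 16 fits that each left out 1 library (log2 2.92 to 3.68, edgeR adjusted p up to 0.0752). The calls of Hmmr and Racgap1 held in 5 and 3 of the 16 fits, and Hmmr was at 0 in 3 of 4 restricted wild-type libraries, so its fitted value depends on replicate 4. Erythroid cells could add cell division transcripts. None of 6 tested erythroid markers was called, 5 had positive values, and their summed level was 350.4 to 701 CPM in restricted and 363.2 to 742 CPM in freely fed mutants, and 377.4 to 831.6 CPM in restricted and 1269 to 2298 CPM in freely fed wild types. Their part in these calls was not tested.

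Most of the other lists gave no called interaction. With 1.5% of all tested genes called, short lists can hold none at that share, so an empty list does not show an equal diet response. There was none among 78 cytosolic and 78 mitochondrial ribosomal protein genes, 83 nuclear oxidative phosphorylation genes, 13 mitochondrial DNA transcripts, 49 ribosome biogenesis genes, 47 translation factors, 46 interferon response genes, 41 lysosome and autophagy genes, 31 proteasome subunits, 25 NRF2 targets, 22 major urinary protein genes, 21 core clock genes or 20 cytosolic heat shock genes. The medians of some of these lists were nevertheless away from that of all genes. Of all tested genes, restriction raised 4.91% and lowered 6.33% in the mutant, and raised 6.3% and lowered 7.3% in the wild type. Of 29 tested genes for ER chaperones and the unfolded protein response, 27 had negative values and the list median was -0.81, and restriction lowered 19 of them in the mutant and 2 in the wild type. In the cytosolic ribosomal protein list 73 of 78 had negative values and the median was -0.41, and restriction raised 6 in the mutant and 67 in the wild type. For the heat shock list the median was -0.55, with 19 of 20 negative. For the major urinary protein list it was -0.93, with 21 of 22 negative, and restriction lowered all 22 in both genotypes. In the ribosome biogenesis list 46 of 49 were negative (median -0.39), and among translation factors 41 of 47 (median -0.21). Of the oxidative phosphorylation genes 73 of 83 were positive (median 0.19). Where the number of diet calls differed between genotypes, it was not matched by a called interaction in any member. Library scaling moved the median of all genes from -0.04 to between -0.01 and 0.02. Under upper-quartile scaling 202 genes were called, 145 positive and 57 negative (71.8% positive, against 60.5% here).

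The called genes had a called gene nearby more often than all tested genes did. Of the 190, 46 had another called gene within 100 kb (24.2%), against 592 of the 12690 tested genes (4.67%). These were largely the P450, desaturase, complement and Slc22a clusters named above, whose copies may share reads. Other pairs, chosen after their values were seen, included Tmem176a (-1.13) and Tmem176b (-1.12), membrane protein genes that overlap on opposite strands, the carboxylesterase genes Ces1b and Ces1c, whose restricted mutant libraries (469 to 673 and 1250 to 1780 CPM) were below all others, and the overlapping Raet1d (2.27) and Raet1e (2.20), ligands of the NKG2D receptor of immune cells. Treh, Cdc20 and Oat each overlap another annotated gene (Phldb1, Elovl1 and Fgfr2), so their counts may not be wholly their own. Tmem176a averaged 75 ± 10.3 CPM in restricted and 204 ± 28.7 CPM in freely fed mutants, and 67.4 ± 3.06 CPM in restricted and 83.7 ± 7.48 CPM in freely fed wild types. The freely fed mutants were above all 12 other libraries of 16-week mice.

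The further groups give the levels of these genes before restriction began in the mutant and late in the life of the wild type. Of 120 interaction genes with a called diet effect in the mutant, the freely fed 7-week mutants were nearer to restricted than to freely fed 16-week mutants in 33 (27.5%), against 164 of all 1426 genes called for diet in the mutant (11.5%). Of 105 interaction genes with a called diet effect in the wild type, the 104-week wild types were nearer to restricted than to freely fed 16-week wild types in 37 (35.2%), against 522 of 1726 (30.2%). These comparisons share the 16-week libraries and are given as a description. Cyp3a11 was at 1440, 1660, 1200 and 1030 CPM in 7-week mutants, above freely fed 16-week mutants and overlapping restricted ones. Scd1 was at 1160, 549, 558 and 747 CPM and Tmem176a at 108, 121, 104 and 115 CPM at 7 weeks, and Scd1 overlapped the restricted 16-week mutants. By contrast, Aass at 564, 503, 455 and 397 CPM, Cth at 194, 194, 159 and 157 CPM and Dio1 at 73, 74.1, 72.5 and 62 CPM lay below, below and above the restricted 16-week mutants. Cyp2c39 was at 136, 112, 87.4 and 77.6 CPM at 7 weeks, closer to freely fed than to restricted 16-week mutants. In 104-week wild types, Sema5b was at 1.5, 1.34, 1.82 and 1.96 CPM, Cd36 at 15.4, 4.11, 28.7 and 11.7 CPM and Sqle at 30.5, 18.7, 2.36 and 9.46 CPM. Cd36 thus ranged from below to above the restricted 16-week wild types, and Sema5b was below every freely fed 16-week wild-type library. Cyp3a11, at 229, 173, 223 and 148 CPM in 104-week wild types, was below all 16 libraries of 16-week mice.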

How the data were processed

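Polyadenylated RNA of mouse liver was sequenced in 6 groups of 4 libraries. The authors deposited whole-number read counts per gene, not normalized. The submitters' processing notes name Trimmomatic 0.39, STAR 2.7.0f, featureCounts of Subread 1.6.4 and the build GRCm38.p6. The handling of strand and of reads that match several genes is not given in the sources used here, and it affects near copies and overlapping genes. Totals ran from 13269792 to 20624803 counts, which sets the precision of low genes. Counts were filtered with filterByExpr and scaled by TMM, and a model of 6 group means was fitted to all 24 libraries with edgeR 4.0.16 (R 4.3.3, robust quasi-likelihood F test, Benjamini-Hochberg adjustment over 12690 genes, threshold 0.05). The script was tested on simulated counts. DESeq2 1.42.0 and limma 3.58.1 served as alternatives. Promoters are RefSeq's (GRCm38.p6), aligned with Biopython 1.88. The named genes, with a mean of at least 2 CPM, were the 8 largest interactions in each direction, up to 6 of opposite diet effects and up to 3 per list with at least 2 calls, and other genes were chosen after their values were seen. The members and lists were chosen with earlier results of these data known. Each library of 16-week mice was left out in turn. All columns mapped to a labelled sample.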

Additional observations from a re-analysis of the deposited data

Results flagged for a closer look

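The interaction is itself a test of whether the diet effect differs between genotypes, and 190 genes passed it. The 39 named ones are listed here by their log2 interaction, each the diet effect in the mutant minus that in the wild type. Positive values were those of Sema5b (4.96), Cux2 (4.11), Cd36 (3.89), Cyp2b10 (3.80), Olig1 (3.47), Upp1 (3.43), Cenpm (3.33), Etnppl (3.25), Scd1 (3.18), Cidec (3.17), Scd2 (3.13), Treh (2.84), Mogat1 (2.62), Cyp3a41b (2.59), Cyp3a41a (2.59), Cyp2c39 (2.49), Gstt3 (2.33), Fitm1 (2.30), Cyp2c29 (2.26), Cth (1.78), Aass (1.66), Pnpla2 (1.54), Abcg5 (1.44), Abcg8 (1.41), Tdo2 (1.09), Hal (1.05) and Arg1 (0.76). Negative values were those of Enho (-4.53), Sqle (-3.70), Pcp4l1 (-2.76), Dio1 (-2.65), Sult2a7 (-2.58), Dclk3 (-2.51), Avpr1a (-2.17), Hs3st6 (-1.87), Nudt7 (-1.40), C1ra (-1.04), Mbl2 (-1.02) and C1s1 (-0.88).

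Single libraries also stood far from the other 3 of their group by Dixon's criterion, which by chance picks about 1 in 20 groups. In restricted mutants these were replicate 1 for Cyp2b10 (48.9 CPM) and replicate 4 for Scd1 (1120 CPM), Scd2 (294 CPM) and Gstt3 (25.3 CPM). In freely fed mutants they were replicate 1 for Abcg8 (35.8 CPM), replicate 2 for Cyp2c29 (129 CPM), replicate 3 for Treh (7.48 CPM) and replicate 4 for Mogat1 (2.48 CPM) and Fitm1 (26.1 CPM). In restricted wild types they were replicate 1 for Cyp3a41a (540 CPM), Cyp3a41b (535 CPM) and Hs3st6 (7.12 CPM), replicate 2 for Sqle (13.9 CPM) and replicate 4 for Gstt3 (6.21 CPM). In freely fed wild types it was replicate 2 for Scd1 (3650 CPM).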

How the results depend on the processing

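Of the 190 genes, 67 were called under all 26 alternatives and 93 in all 16 fits that left out 1 library, and no named gene changed direction in any. Leaving out single libraries moved the 190 to between 109 and 225, the 115 positive calls to between 69 and 132, the 75 negative ones to between 38 and 93, the 1426 diet calls in the mutant to between 1053 and 1603 and the 1726 in the wild type to between 1051 (without replicate 4 of the restricted group; 1145 without replicate 3 of the freely fed group) and 2009. With only the 16 libraries of 16-week mice, 126 genes were called, 91 positive and 35 negative (72.2% positive), and 112 were among the 190. DESeq2 called 388, 249 positive and 139 negative, including all 190. Added after seeing the data, limma voom with a spread for each group called 129, 75 positive and 54 negative. Leaving out replicate 4 of the restricted wild type and replicate 1 of the freely fed mutant together gave 125 calls, 69 of them positive, and 1148 diet calls in the wild type. The cause was not tested. With the replicate number as a block, 184 genes were called, 168 of them among the 190. The numbers were not taken to pair libraries: of 24 same-numbered pairs, 5 had correlated deviations over 0.1 (range -0.23 to 0.30), and 6 of 16 libraries were most like a library of their own number. Depth limits genes at or below 1 CPM, such as Hmmr and Racgap1. It also limits large interactions that rest on a group near that level. These include Cyp2b10 (0.489 CPM), Cux2 (0.597 CPM) and Upp1 (0.714 CPM) in freely fed mutants. In restricted wild types they include Cenpm (0.304 CPM) and Sema5b (0.67 CPM).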
